A study of Mus musculus with 4 samples.

Results

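The genes described here are the transcription regulators among the genes that the authors listed as differing between the distal and the proximal nail matrix of the mouse. The authors' list held 1133 genes with a single symbol, and 159 of these carried a Gene Ontology process term on the regulation of transcription. The rule left out 33 of them, by name or by terms such as RNA splicing, ubiquitin or cell adhesion, and 126 genes remained. Besides signalling and cell cycle genes, its names include the transcription regulators Lef1, Tcf7, Hoxc13, En1 and Id2. The families below are therefore counted without these regulators. Each gene was represented by the probe set with the highest mean log2 intensity. For 16 of the 126 genes this probe set carried the suffix _s_at or _x_at. Probes of these types may match other transcripts, so such intensities may not be specific to the gene. These genes include Pctk1, Snai2, Setd8, Pkig, Trim28, Cbx1 and Kdm6b. The authors' list was made on these same arrays, at a fold of at least 1.99 between the regions, so the difference between regions chose the members and is given as a description. Process terms were not used here for 20 further listed genes.

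The tissue was dissected from mice aged 8 weeks, with 2 arrays for the intact distal matrix and 2 for the proximal matrix, hybridized to Affymetrix Mouse430_2 arrays, which carry several probe sets for many genes. The labels give no strain, sex or genotype, and they do not say whether the arrays of a region came from separate animals, so the spread between them may be technical. Median intensities were 45.2 and 48.4 in distal and 55.7 and 41.6 in proximal matrix. The Gapdh 3'/5' intensity ratio, a sign of RNA quality, was 9.40 and 6.73 in distal and 7.73 and 8.15 in proximal matrix. Among markers of the tissue, 6 of 10 keratinocyte genes were in the authors' list, with summed intensities of 16563 and 19943 in distal and 7371 and 8294 in proximal matrix. Krt42 and Krt1, with differences of 3.36 and 1.24 (distal minus proximal, log2), carried that sum, and 4 of the 6 were higher in proximal matrix, from -1.65 for Krt15 to -0.21 for Krt6b. All 5 of 5 keratin-associated protein genes were listed. Of 6 fibroblast markers 1 was listed, Dcn, which codes for the matrix proteoglycan decorin. Its intensities were 242.6 and 309.7 in distal and 984.1 and 1049.1 in proximal matrix. The part of fibroblasts in the differences below was not tested, and in dissected tissue fewer cells of a type and less RNA per cell cannot be told apart. None of the endothelial, immune, pigment, muscle or bone markers was in the list, and probe sets outside the list carry no gene name here.

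The nail matrix is the epithelium whose dividing cells produce the nail plate, and the proximal matrix lies nearer the nail fold. Transcription is regulated at several levels. DNA-binding factors recognise short motifs in promoters and enhancers, and coactivators, corepressors and the Mediator complex carry their effect to RNA polymerase II. Chromatin proteins write, read or remove marks on histones and DNA, and general factors start the polymerase and release it into elongation. In epidermis, such factors set the switch from dividing basal cells to cells that make keratins and stop dividing.

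The promoters of 4 members are shown first, because the members otherwise appear only as intensities: Mycn and Sox4 had higher intensities in proximal matrix, and Asxl2 and Setd8 had higher intensities in distal matrix. They come from RefSeq on mouse build GRCm38.p6 and hold the 250 bases before the start site on the strand of the gene, 5' to 3'. Capitals mark motifs searched on either strand. The Mycn window lies at chr12:12941837-12942086 on the minus strand, and its capitals are GC boxes (GGGCGG), a sequence that SP and KLF factors bind.
Mycn: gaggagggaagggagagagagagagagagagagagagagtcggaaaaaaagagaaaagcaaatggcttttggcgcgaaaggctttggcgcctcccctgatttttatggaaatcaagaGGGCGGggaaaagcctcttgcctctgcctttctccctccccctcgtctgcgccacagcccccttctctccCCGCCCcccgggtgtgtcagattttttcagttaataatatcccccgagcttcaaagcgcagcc
The Sox4 window lies at chr13:28953700-28953949 on the minus strand, and its capitals are CCAAT boxes, which the trimeric factor NF-Y binds.
Sox4: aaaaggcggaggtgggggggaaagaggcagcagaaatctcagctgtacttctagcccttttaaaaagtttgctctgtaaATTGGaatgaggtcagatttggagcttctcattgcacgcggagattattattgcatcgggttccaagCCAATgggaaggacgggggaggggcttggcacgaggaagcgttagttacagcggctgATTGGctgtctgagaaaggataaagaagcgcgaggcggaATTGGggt
The Asxl2 window lies at chr12:3426607-3426856 on the plus strand, and its capitals are a GC box and an ETS core (CCGGAA).
Asxl2: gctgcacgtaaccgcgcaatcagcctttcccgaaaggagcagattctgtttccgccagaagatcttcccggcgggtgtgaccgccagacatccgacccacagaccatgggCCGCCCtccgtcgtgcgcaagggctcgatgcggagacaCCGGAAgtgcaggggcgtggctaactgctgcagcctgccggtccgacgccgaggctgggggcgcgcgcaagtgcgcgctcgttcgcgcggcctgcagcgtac
The Setd8 window lies at chr5:124439680-124439929 on the plus strand, and its capitals are GC boxes and CCAAT boxes.
Setd8: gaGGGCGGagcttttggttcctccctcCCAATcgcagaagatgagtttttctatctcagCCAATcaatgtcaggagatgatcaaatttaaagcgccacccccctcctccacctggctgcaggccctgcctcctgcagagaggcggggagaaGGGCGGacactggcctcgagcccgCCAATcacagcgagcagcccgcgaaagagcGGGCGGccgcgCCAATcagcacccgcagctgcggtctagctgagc

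The 4 promoters differ in which motifs they hold: CCAAT boxes without a GC box in Sox4, GC boxes without a CCAAT box in Mycn and Asxl2, and both in Setd8. A 300-base window, with 50 further bases after the start site, was found in RefSeq for 96 of the 126 members, against 27025 windows in the whole table. Most of the member windows were rich in CpG, as were most of those of the other listed genes. The median ratio of observed to expected CpG was 0.863 in the members, 0.814 in the other listed genes and 0.389 in all promoters, and it exceeded 0.6 in 90.6% of the members, 78.3% of the other listed genes and 36.4% of all promoters. The share was similar in members with higher proximal (91.0% of 67) and higher distal intensities (89.7% of 29). Bnc2 had no CpG in its window, and Zfp418, with a ratio of 0.144, and Zfp260, with 0.323, followed. These are descriptions of the sequence, and DNA methylation was not measured.

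**Figure D1:**
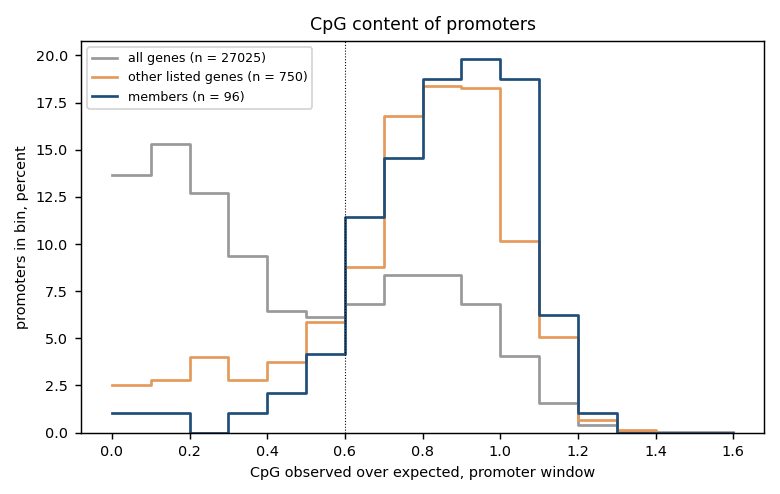
Distribution of the ratio of observed to expected CpG (x axis) in 300-base promoter windows, as the percent of promoters in each bin (y axis), for 96 members, the other listed genes and all promoters of the RefSeq table. The members and the other listed genes have medians of 0.863 and 0.814, against 0.389 for all promoters.

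Motif searches on both strands gave a similar description. GGGCGG was in 81.25% of the member windows, 66.5% of the other listed genes and 35.9% of all promoters. The TATA box sequence TATAAA was in 2 of 96 member windows (2.08%), in 8.13% of the other listed genes and in 14.2% of all promoters. CACGTG, the E-box that MYC and its partner MAX bind, was in 14.6%, 9.87% and 7.24%. CCGGAA was in 31.25%, 30.0% and 15.2%, and CCAAT in 34.4%, 36.0% and 37.9%, so the members were close to the other listed genes in both. The cyclic AMP response sequence TGACGTCA was in 3.13%, 4.40% and 1.88%, and the AP-1 sequence TGANTCA in 3.13%, 5.20% and 7.93%. Motifs were counted separately where they overlap, as CACGTG and TGACGTCA can. A match is not a bound site, and a window without a match says nothing about the factor.

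Of the 126 members, 90 (71.4%) had a higher mean log2 intensity in proximal matrix and 36 in distal matrix. The other listed genes lay the same way, with 684 of 1007 (67.9%) higher in proximal matrix, while 52.0% of all 45037 probe sets were. The median difference, distal minus proximal on the log2 intensity scale, was -0.96 for the members, -0.93 for the other listed genes and -0.06 for all probe sets. With the members that give only a bound set to it, as defined below, the members' median was -0.84. In 93 members (73.8%) the regions did not overlap, 70 with both proximal arrays higher and 23 with both distal arrays higher. Such separation was found in 34.7% of all probe sets (18.3% proximal, 16.4% distal) and in 73.0% of the other listed genes. The rule used this contrast, so nothing is read from the higher share. The counts without overlap given by family below stand beside the same shares, and nothing is read from them.

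**Figure D2:**
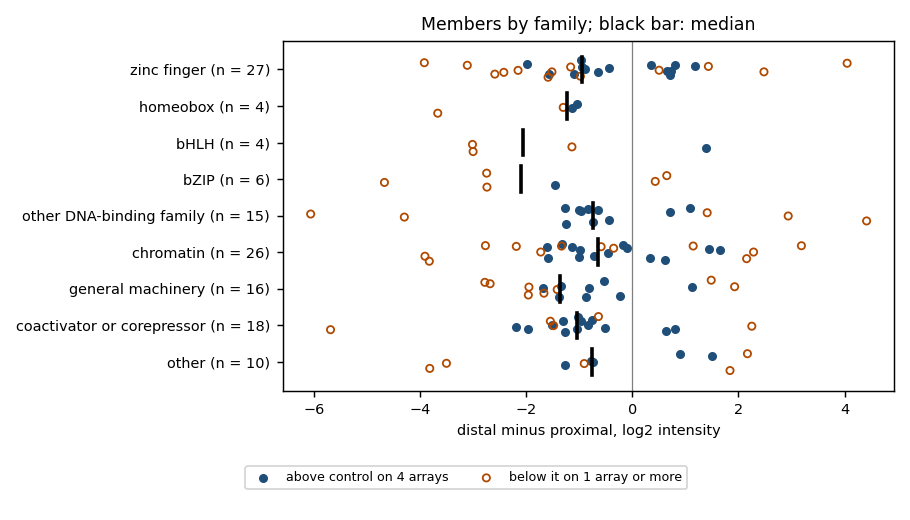
Distal minus proximal log2 intensity (x axis) of each of the 126 members, grouped by family (y axis); each point is a gene, filled where all 4 arrays exceed the control level, black bars are medians, and values below 0 are higher in proximal matrix. All 4 homeobox members lie below 0, and the other families hold members on both sides.

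The spread between arrays of a region was wide. The median gap between the 2 arrays was 1.08 on the log2 scale in distal and 0.54 in proximal matrix for the members, and 1.20 and 0.99 for all probe sets. In 55 members the larger gap within a region exceeded the difference between the regions. The lowest of the 4 arrays was distal replicate 2 in 58 members, distal replicate 1 in 36, proximal replicate 1 in 20 and proximal replicate 2 in 12. In 108 members the direction was kept when any single array was left out. The intensities of 68 members lay above the highest Bacillus subtilis control probe set on all 4 arrays. These controls match no mouse RNA, and their highest intensities were 58.0 and 81.0 in distal and 96.8 and 45.4 in proximal matrix. Below, a region in which a member did not exceed this control level on either array gives only a bound on the fold. The bound compares means over 2 arrays and carries no error, so it is not a minimum for each array. Where only 1 array of the lower region lay below the control level, the difference is given. Its size then rests in part on a value below that level. Among the genes named below, these include Zfp800, Zkscan3, Tshz1, Eaf1, Taf1d, AA987161, Fam120b, Gtf2h1, Ccnl2, Rfc1, Jarid2, Cux1, Tcf4 and Asxl1.

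The zinc finger genes were the largest DNA-binding family, with 27 members, 17 higher in proximal and 10 in distal matrix and a median difference of -0.95. Klf5, a Kruppel-like factor of dividing epithelial cells, had intensities of 126.9 and 163.0 in distal and 507.6 and 639.4 in proximal matrix. All proximal values lay above all distal ones, a difference of -1.99 ± 0.54 on the log2 scale (limma SE, n = 2 arrays per region, as for all differences below). Snai2, a repressor known for its action on the E-cadherin gene, was the brightest zinc finger member. It read 1388.2 and 1497.3 in distal and 3254.5 and 2409.6 in proximal matrix, without overlap, a difference of -0.96 ± 0.29. Tshz1, a teashirt zinc finger gene, read 167.1 and 18.0 against 402.0 and 271.3, a difference of -2.59 ± 0.86. Its distal arrays lay apart, and the difference was -0.98 without distal replicate 2 and -4.20 without distal replicate 1. Bnc2, a basonuclin gene, read 2.8 and 28.1 on the distal arrays, below the control level, and 221.6 and 81.2 on the proximal arrays. Its mean proximal level was at least 1.96-fold higher, and its value on proximal replicate 2 only just exceeded the higher distal control level of 81.0.

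On the distal side of the zinc finger genes, Zfp800 read 334.2 and 153.2 in distal and 3.0 and 62.4 in proximal matrix. The regions did not overlap, and the difference was 4.05 ± 1.32, with a wide gap between the proximal arrays. The value on proximal replicate 1 lay below the control level of 96.8 on that array, so the size is uncertain. Leaving out proximal replicate 1 gave 1.86, and leaving out proximal replicate 2 gave 6.24. Zkscan3, which has a KRAB and a SCAN domain, read 262.9 and 89.0 against 12.8 and 58.7, a difference of 2.48 ± 1.14, or 1.38 without proximal replicate 1. The related Zkscan1, chosen after its values were seen, had the opposite direction, at 34.3 and 204.3 in distal and 592.6 and 233.8 in proximal matrix. Trim28, the corepressor that KRAB zinc finger proteins recruit, was also named after its values were seen. It read 133.0 and 136.0 in distal and 405.8 and 418.6 in proximal matrix, with close replicates and a difference of -1.62 ± 0.58.

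The homeobox family had 4 members, all higher in proximal matrix and all without overlap, with a median difference of -1.22. Regions did not overlap in 73.0% of the other listed genes and 34.7% of all probe sets either. In all 4 homeobox members distal replicate 2 was the lowest array. Dlx4, of the distal-less family, read 19.1 and 16.6 on the distal arrays, below the control level, and 201.9 and 253.0 on the proximal arrays, at least 3.30-fold higher. Cux1, a cut-like homeobox gene, read 175.3 and 70.6 against 299.8 and 250.9, a difference of -1.30 ± 0.69, or -0.65 without distal replicate 2 and -1.96 without distal replicate 1. Emx2, known for its part in forebrain and urogenital development, had a difference of -1.03 ± 0.51 and was chosen after its values were seen.

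Among the 4 basic helix-loop-helix genes, 3 were higher in proximal matrix, and the regions did not overlap in any of them. Mycn, which drives growth and division as a partner of MAX, read 21.5 and 47.0 on the distal arrays, below the control level, and 268.8 and 244.4 on the proximal arrays. Its proximal level was at least 3.74-fold higher. Mxi1, which competes with MYC proteins for MAX, lay in the opposite direction, at 432.8 and 893.5 in distal and 229.9 and 247.3 in proximal matrix, a difference of 1.38 ± 0.50, or 0.86 without distal replicate 2. Mycbp, a coactivator that binds the MYC protein, read 9.5 and 3.3 in distal and 300.2 and 276.7 in proximal matrix, at least 4.20-fold higher. Mycn and Mycbp thus had the higher intensities in proximal matrix and Mxi1 in distal matrix, within a list chosen for such differences. Tcf4, an E protein, had a difference of -1.14 ± 0.75, and Srebf1, which controls lipid synthesis genes, was chosen after its values were seen and read 65.5 and 3.6 against 80.0 and 188.6.

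Of the 6 basic leucine zipper genes, 4 had the higher mean in proximal matrix, and the regions overlapped in 4. Their median difference was -2.10, or -0.73 with the 2 members below the control level in distal matrix at their bound or, without one, at 0. Fosl2, a subunit of AP-1, read 13.8 and 4.4 on the distal arrays, below the control level, and 223.0 and 176.5 on the proximal arrays, at least 2.89-fold higher. Creb5, of the CREB and ATF family, read 197.9 and 87.2 in distal and 379.3 and 342.0 in proximal matrix, without overlap, a difference of -1.46 ± 0.62, or -0.86 without distal replicate 2. The other members, Atf2, Creb3, Crem and Maf, overlapped, and Crem and Maf had the higher mean in distal matrix.

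In other DNA-binding families, 10 of 15 members were higher in proximal matrix, with a median of -0.74. The regions did not overlap in 12 (80.0%, beside 73.0% of the other listed genes and 34.7% of all probe sets). Ehf, an ETS factor of epithelial cells, had a difference of -6.06 ± 1.93, from intensities of 1.3 and 1.7 in distal and 115.2 and 85.4 in proximal matrix. Because the distal values lay below the control level, the intensities give only that the proximal level was at least 1.45-fold higher. E2f8, an atypical E2F that represses cell cycle genes, read 18.0 and 6.6 against 276.0 and 165.9, at least 3.12-fold higher in proximal matrix. Sox4, of the SOX family, read 546.3 and 529.7 in distal and 967.3 and 1134.7 in proximal matrix, with close replicates in both regions. Its difference was -0.96 ± 0.38, and on the other 2 listed probe sets of Sox4 both proximal arrays were also higher. One of these read 3.8 and 58.8 in distal matrix, below the control level, so its size is not given. Nfib, a nuclear factor I gene with a part in hair follicle stem cells, was named after its values were seen. It read 346.4 and 345.3 against 609.2 and 620.6, a difference of -0.83 ± 0.45.

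On the distal side of these families, Nrf1, a regulator of genes for mitochondrial function, read 63.8 and 180.9 against 44.0 and 37.1. Its mean was at least 1.62-fold higher in distal matrix. Its value on distal replicate 1 lay below the control level of 96.8 on proximal replicate 1.

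**Figure D3:**
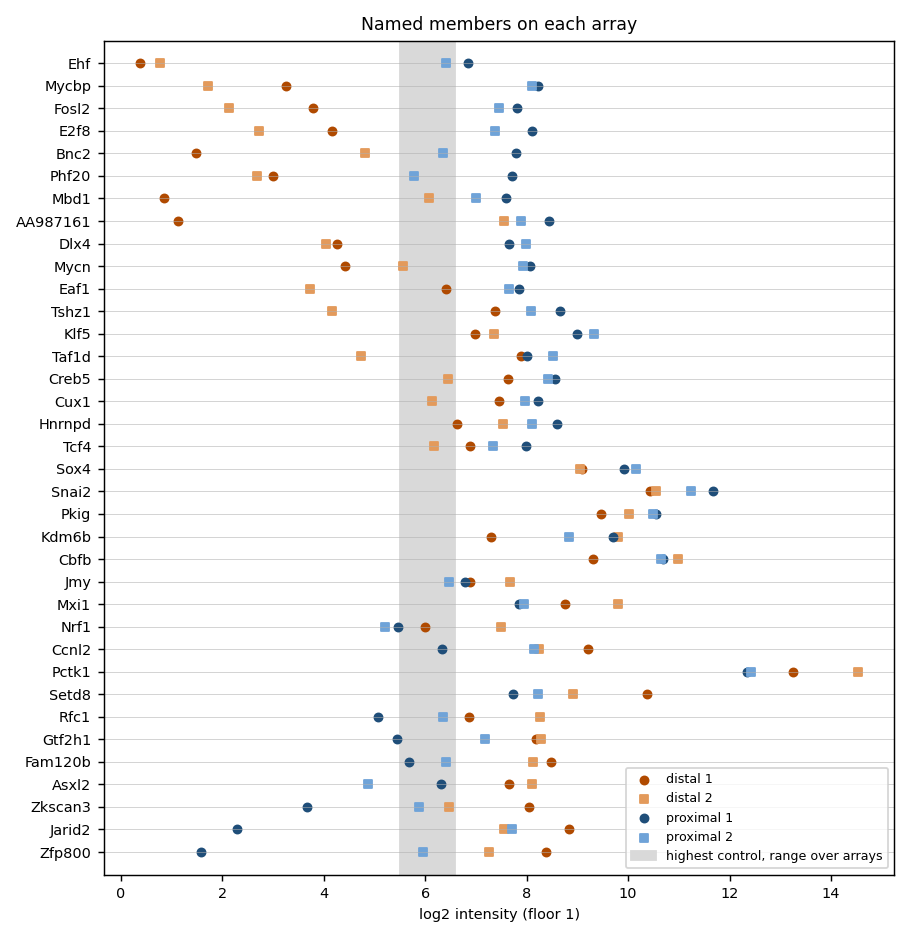
Log2 intensity (x axis) of 36 of the 39 named members (y axis) on each of the 4 arrays; each point is 1 array, and the grey band spans the highest control over the arrays. Klf5, Snai2 and Sox4 show close replicates and separated regions, whereas proximal replicate 1 lies far below proximal replicate 2 in Jarid2 and Zfp800.

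Of the 26 chromatin members, 18 were higher in proximal and 8 in distal matrix, with a median of -0.65. The regions did not overlap in 17 (65.4%, beside 73.0% of the other listed genes and 34.7% of all probe sets). Setd8, the enzyme that adds a single methyl group to lysine 20 of histone H4 and is now called Kmt5a, read 1329.5 and 479.3 in distal and 213.0 and 300.2 in proximal matrix. The regions did not overlap, and the difference was 1.66 ± 0.50, or 0.92 without distal replicate 1. Asxl2, a Polycomb-associated protein, read 202.2 and 275.8 in distal and 79.9 and 29.4 in proximal matrix, at least 3.56-fold higher in distal matrix. Its paralogue Asxl1, chosen after its values were seen, lay the same way, with a difference of 1.15 ± 0.73, or 0.69 without proximal replicate 1. Jarid2, a subunit of Polycomb repressive complex 2, had a difference of 3.19 ± 1.15, but its intensities of 453.8 and 188.0 in distal and 4.9 and 210.0 in proximal matrix overlapped. Without proximal replicate 1 the difference was 0.48.

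The 4 histone lysine demethylase genes among the members, grouped after their values were seen, all had the higher mean in proximal matrix, and 2 of them overlapped. Kdm6b, which removes methyl groups from lysine 27 of histone H3, was one that overlapped, at 156.8 and 885.7 in distal and 827.4 and 454.8 in proximal matrix. Its difference of -0.72 ± 0.57 turned to 0.53 without distal replicate 1. The other listed probe set of Kdm6b, which was dimmer, read 286.1 and 66.7 in distal and 618.5 and 396.9 in proximal matrix. On that probe set the regions did not overlap, and the difference was -1.84. Phf20, a reader of methylated lysine, read 8.0 and 6.4 against 210.3 and 54.8, and Mbd1, which binds methylated CpG, read 1.8 and 67.7 against 192.0 and 127.5. Their distal values lay below the control level, and the mean proximal level was at least 1.57-fold and 2.28-fold higher. On proximal replicate 2, Phf20 did not exceed the distal control levels of 58.0 and 81.0. Cbx1, the heterochromatin protein HP1 beta, was named after its values were seen and read 321.1 and 137.8 against 588.9 and 678.5, a difference of -1.59 ± 0.52, or -0.98 without distal replicate 2. Brd8, a subunit of the TIP60 acetyltransferase complex, was the 1 member whose listed probe sets differed in direction. Its brighter probe set read 975.3 and 732.5 in distal and 330.5 and 294.4 in proximal matrix, a difference of 1.44 ± 0.44, and the other had -1.15.

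The general machinery had 16 members, 13 of them higher in proximal matrix, with a median of -1.36. Among these, 6 code for Mediator subunits or its kinase (Med11, Med13, Med13l, Med20, Med31 and Cdk8). This set was made after the values were seen. All 6 had the higher mean in proximal matrix, from -1.69 to -0.24, and 3 did not overlap between regions. The difference of Cdk8 turned to 0.28 without distal replicate 1, and that of Med11 was -0.08 without proximal replicate 2. Med13, of the kinase module that tethers to the Mediator core, read 355.5 and 103.5 in distal and 511.4 and 750.7 in proximal matrix. In the elongation step, a set made in the same way, 5 of 6 members had the higher mean in proximal matrix. They include Ccnt1, the cyclin of P-TEFb, which releases the paused polymerase, at 281.4 and 251.1 against 507.3 and 433.1. Htatsf1, another of them, turned from -0.54 to 0.42 without proximal replicate 2. Eaf1, a partner of ELL elongation factors, read 85.2 and 13.3 against 229.8 and 202.3, a difference of -2.68 ± 1.00, or -1.34 without distal replicate 2 and -4.02 without distal replicate 1. The member on the distal side was Cobra1 (Nelfb), a subunit of the factor NELF that holds the polymerase in pause, at 561.4 and 303.9 against 163.8 and 219.4.

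Gtf2h1, a subunit of the initiation and repair factor TFIIH, read 291.9 and 313.4 in distal and 43.6 and 144.9 in proximal matrix. It was higher on both distal arrays, with a difference of 1.93 ± 0.74, or 1.06 without proximal replicate 1. Ccnl2, a cyclin linked to transcription and splicing, read 595.6 and 301.9 against 80.9 and 282.9, a difference of 1.49 ± 0.63. Its second distal and second proximal values lay close together, and the difference was 0.58 without proximal replicate 1. Taf1d, a subunit of the selectivity factor of RNA polymerase I, read 236.4 and 26.8 against 255.6 and 368.8, a difference of -1.95 ± 0.82, or -0.38 without distal replicate 2 and -3.52 without distal replicate 1.

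Of 18 coactivators and corepressors, 15 had the higher mean in proximal matrix, with a median of -1.04. The regions did not overlap in 14 (77.8%, beside 73.0% of the other listed genes and 34.7% of all probe sets). Tle4, a Groucho corepressor that factors such as TCF proteins recruit, was chosen after its values were seen. It read 129.7 and 137.0 against 396.8 and 369.5, with close replicates and a difference of -1.52 ± 0.59. Nfkbiz, a nuclear inhibitor-of-kappa-B protein that acts with NF-kappa-B on inflammatory genes, was chosen in the same way and read 323.1 and 290.0 against 786.6 and 719.5.

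Cbfb, the partner of RUNX factors, read 637.8 and 2012.4 in distal and 1647.1 and 1596.3 in proximal matrix. Its regions overlapped, and the difference of -0.52 ± 0.39 became 0.31 without distal replicate 1. On the distal side, Fam120b, a coactivator of PPAR gamma, read 355.5 and 279.2 against 51.5 and 85.0, a difference of 2.25 ± 0.73. Its value on proximal replicate 1 lay below the control level of 96.8, and the difference was 1.89 without that array. Jmy, a p300 cofactor that also nucleates actin, read 117.5 and 203.2 against 110.8 and 88.7, a difference of 0.64 ± 0.78, smaller than its error, or 0.25 without distal replicate 2.

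The remaining 10 members carry the process term without belonging to these classes, and 6 were higher in proximal matrix. Pctk1 (Cdk16), a kinase of the cyclin-dependent family, was the brightest member, on a probe set of the _s_at type. It read 9720.9 and 23794.1 in distal and 5225.6 and 5467.8 in proximal matrix. The regions did not overlap, and the difference was 1.51 ± 0.27. It was the 1 member past an adjusted p of 0.05 in limma over all probe sets, where 0.0666% of all probe sets passed, 0.0533% with the higher level in distal and 0.0133% in proximal matrix, and since the list was chosen on this contrast nothing is read from it. Its difference was 0.86 without distal replicate 2 and 2.15 without distal replicate 1. It did not pass when either proximal array was left out, with an adjusted p of 1 without replicate 1 and 0.97 without replicate 2. Nor did it pass with quantile normalization (limma adjusted p = 0.131), median centring (0.349), hybridization control scaling (0.841), brighter probe sets only (0.495), a pseudocount of 16 (0.0717) or no variance trend (0.893). Pkig, an inhibitor of protein kinase A, read 704.7 and 1037.4 against 1493.9 and 1432.5, a difference of -0.77 ± 0.34, or -0.50 without distal replicate 1. Hnrnpd, which binds AU-rich RNA, had a difference of -1.26 ± 0.63, or -0.82 without distal replicate 1. Rfc1, the large subunit of the clamp loader of DNA replication, had one of 1.84 ± 0.90, or 1.14 without distal replicate 2. The gene AA987161, which the RefSeq gene table did not match, read 2.2 and 188.1 against 347.7 and 236.2. Its difference of -3.82 ± 1.31 ranged from -7.03 to -0.61 when single arrays were left out.

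A list of 80 known epidermal regulators held 8 listed genes, 7 of them members. Among these, Klf5, Ehf, Tcf4 and Kdm6b had the higher mean in proximal matrix, and Setd8 and Jarid2 in distal matrix. By process terms, 11 of 14 members annotated only to negative regulation and 15 of 18 annotated only to positive regulation were higher in proximal matrix. The 92 members with neither term had 62 in that direction. These shares stand beside the 71.4% of all members, and they were not tested. The molecular function term DNA binding was carried by 57.1% of the members and 6.36% of the other listed genes. For zinc ion binding the shares were 38.1% and 9.43%, and for the component term nucleus 98.4% and 25.0%. The rule chose the members by a process term of the same ontology, so nothing is read from their higher shares.

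The authors' own log2 values, from which they made the list, gave the same direction as the deposited intensities in all 126 members, and in 991 of the 1007 other listed genes. In the 68 members above the control level on every array the median log2 size was 0.96 in the intensities and 1.21 in the authors' deposited table, and the table had the larger value in 57. In the 35 members with 1 or more arrays not above it, but with the lower region above it on 1 or 2 arrays, the medians were 1.84 and 1.27. In the remaining 23 the lower region did not exceed the control level, so their intensities give no size to set beside the authors'. Among the members in the authors' deposited table, the highest folds were those of Tle4 (5.78), Trim27 (4.91), Klf5 (4.77), Mycbp (4.72), Med13 (4.14) and Zkscan1 (3.88). Trim27 read 98.6 and 111.7 in distal and 161.4 and 1048.8 in proximal matrix, so proximal replicate 2 carried most of its difference in intensity. Ehf, with a bound of at least 1.45-fold in the intensities, had a fold of 2.79 in the authors' deposited table. In the intensities 82 members reached a fold of 1.99 and 44 did not. The members nearest the authors' limit in their deposited table were Ubp1 (1.99), Hdac3 (2.00), Pias2 (2.00), Emx2 (2.00) and Foxo3 (2.01), and genes outside the list are not named here.

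**Figure D4:**
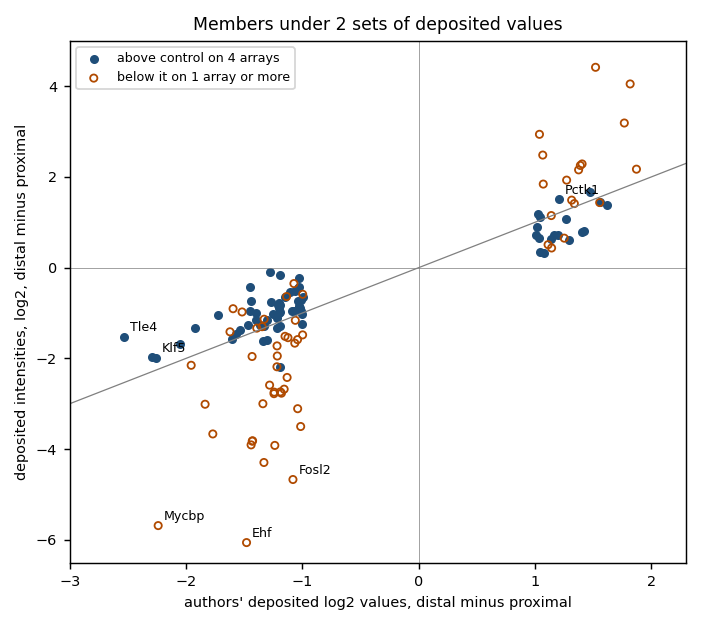
Distal minus proximal log2 difference of each of the 126 members in the deposited intensities (y axis) against that from the authors' deposited log2 values (x axis); each point is a gene, filled where all 4 arrays exceed the control level, and the line marks equal values. All members lie on the same side of 0 on both axes. Some members with a dim region, such as Ehf at -6.06, lie far from the line, at intensities below the control level. Others with a dim region, such as Nrf1 and Klf3, lie close to the line.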

How the data were processed

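Data from 4 arrays of distal and proximal nail matrix were used, with regions taken from the labels. The deposited value table holds linear intensity per probe set, with the authors' scaling, which was not given in the sources used here. Beside it, the second table is the authors' fold list. Per the file headers it kept probe sets at a fold of at least 1.99, and its log2 values are the authors', their normalization also not given in the sources used here. All sample columns were used.

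Intensities were raised to a floor of 1 and taken to log2. Leaving out 64 control probe sets, 45037 probe sets entered a limma fit (version 3.58.1, R 4.3.3; lmFit and eBayes with a variance trend, two-sided, Benjamini-Hochberg, threshold 0.05), and the script was tested on simulated data. Python 3.11.15 with pandas 2.3.3 and matplotlib 3.10.9 made summaries and figures. Only 2 arrays per region limit the precision. For a member dim in 1 region, the bound sets the bright region's mean against the mean of, per array, the higher of the control level and the member's own intensity. The control level is the highest of 27 Bacillus subtilis probe sets, a rule chosen with values known.

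Gene names are those of the authors' list. For 13 members the current symbol differs, and 125 members matched the RefSeq gene table (GRCm38.p6). Promoters were taken from the first start site listed.

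The members, gene lists and tests were chosen with earlier results of these data known, and the family patterns were completed after the members were seen. Named genes were the 10 largest differences per direction without overlap and above the control level in the higher region, the 5 brightest, epidermal regulators, up to 2 per family and direction, those that passed limma, and those with probe sets that differ in direction. Others are said to be chosen after their values were seen, and 3 named genes are not reported here. Alternatives were quantile normalization, median centring, scaling to 18 hybridization controls, brighter probe sets only, a pseudocount of 16, no variance trend, a replicate block, leaving out each array, the mean over the probe sets of a gene, and the authors' log2 values.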

Additional observations from a re-analysis of the deposited data

How the results depend on the processing

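The 30 probe sets called by limma became 9 with quantile normalization, 8 with median centring, 12 with hybridization control scaling, 2 with brighter probe sets only, 17 with a pseudocount of 16, 90 with the replicate block and 4 to 899 when single arrays were left out. Without the variance trend limma called 0, with 3010 at an unadjusted p under 0.05, against 2294 with the trend. The 1 member called, Pctk1, passed with the replicate block and with the mean over probe sets. The members called were 0 under quantile normalization, median centring, hybridization control scaling, brighter probe sets only, the pseudocount of 16 and no variance trend. They numbered 0 to 22 when single arrays were left out, with 22 without distal replicate 1, 22 without distal replicate 2 and 0 without either proximal array. The probe sets called among all probe sets also rose when either distal array was left out. Such a fit leaves a single array in that region, and the members were chosen on this contrast. Nothing is therefore read from the members called in these fits. The labels do not say whether equally numbered arrays share an animal or day. Deviations of equally numbered arrays had a correlation of -0.007 across probe sets. This cannot settle whether they were paired, because arrays that share an animal or day need not deviate alike.

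Between 84 and 94 members were higher in proximal matrix, 84 of them under brighter probe sets only, which left 119 members. Their median difference lay between -1.47 and -0.64, the first under hybridization control scaling, which moved the median of all probe sets from -0.06 to -0.57, and the second without distal replicate 2. The authors' values gave -1.14. Dim members at their bound gave -0.84. Leaving out single arrays, Cbfb ranged from -1.35 to 0.31 and Kdm6b from -1.97 to 0.53, both reversed without distal replicate 1. The cause was not tested. With the mean over its listed probe sets, Kdm6b had a difference of -1.28. Leaving out 152 values that equal the main one because the setting cannot move a difference, 314 values for named members kept their direction within the replicate spread and 37 moved beyond it. The 314 include fits without 1 array. Leaving out 1 array cannot shift a difference beyond this spread, so nothing is read from those values. In 23 members the control level limits the fold to a bound, or to none in 5.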
